A study of Mus musculus with 4 samples.

Results

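Heart RNA of a mouse group given cyclophosphamide (CY) was set directly against heart RNA of a group given acrolein, without the saline control in between. The comparison used the CY array and the acrolein array, 2 of the 4 arrays of the series. CY is an alkylating prodrug that liver enzymes activate. The activated drug breaks down to phosphoramide mustard, which crosslinks DNA, and to acrolein, a small reactive aldehyde that binds thiols and proteins. Cells meet aldehydes with glutathione, with aldehyde dehydrogenases and with genes driven by the transcription factor Nrf2, and they meet DNA crosslinks with repair proteins and p53. A mouse given acrolein alone receives the aldehyde without the mustard. The direct comparison sets heart RNA after the whole drug beside heart RNA after injected acrolein.

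Both groups were female C57BL/6J mice with no allele or transgene named, 6 weeks old by the labels, while the methods section gives a lower age. CY was injected into the peritoneum at 400 mg/kg and acrolein at 5 mg/kg on each of 2 days, and hearts were taken 3 h after the last dose, although a passage of the study's results counts the interval in days. The other arrays held hearts given normal saline (NS) and hearts given N-acetylcysteine (NAC) at 200 mg/kg ahead of the same CY dose (NAC + CY). The doses of CY and acrolein differed, so the values are side by side and are not a comparison at equal exposure. The study calls it unclear whether injected acrolein, which proteins quickly adsorb, acted properly on the heart muscle cells. It draws no conclusion on the share of acrolein in CY cardiotoxicity. The series speaks of several independent studies but holds 1 array for each condition, and whether an array carried 1 animal or a pool is not given in the sources used here. The differences below therefore rest on single arrays, without replicates and without p-values.

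Signals are background-subtracted fluorescence in arbitrary units, quantile-normalised over the CY and acrolein arrays. Of 56605 probes, 29639 (52.4%) were well above background on at least 1 of the arrays, 26757 of them on both. On the CY array 49.6% of all probes were well above background and on the acrolein array 50.02%. Repeated spots of a probe gave a spread of 0.07 log2 units for a ratio, and the correlation of the log2 signals was 0.973 over probes. Over all pairs of the series the median absolute log2 difference was 0.30 between CY and acrolein, 0.20 between CY and NAC + CY, and 0.13 between acrolein and NS. A gene is represented by its brightest kept probe, which gave 15798 genes. A gene was counted as higher on an array at a ratio of at least 2-fold. Where it was not well above background on the dim array, the dimmest probe that passed this test on that array set the lower side, and the ratio is given as "at least".

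By this count 817 genes (5.17%) were higher on the CY array and 688 (4.35%) were higher on the acrolein array, and 14293 differed by less than 2-fold. The dim side was such a bound for 161 and 106 of them. At 4-fold the counts were 214 and 68, and at 8-fold they were 53 and 6, so most of the large ratios lay on the CY side. The median gene had a log2 ratio, CY over acrolein, of -0.02, with quartiles of -0.31 and 0.27. By the study's criteria of a Z-score and a ratio, applied to this pair, 623 genes (3.94%) were higher on CY and 469 (2.97%) on acrolein. Of the 455 counted genes with several probes, 183 had every probe at 2-fold in the same direction and 272 did not, 4 of which had another probe at 2-fold the opposite way. The housekeeping genes were level. Actb read 34243 on CY and 34060 on acrolein, and Gapdh read 229320 and 215390.

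**Figure D1:**
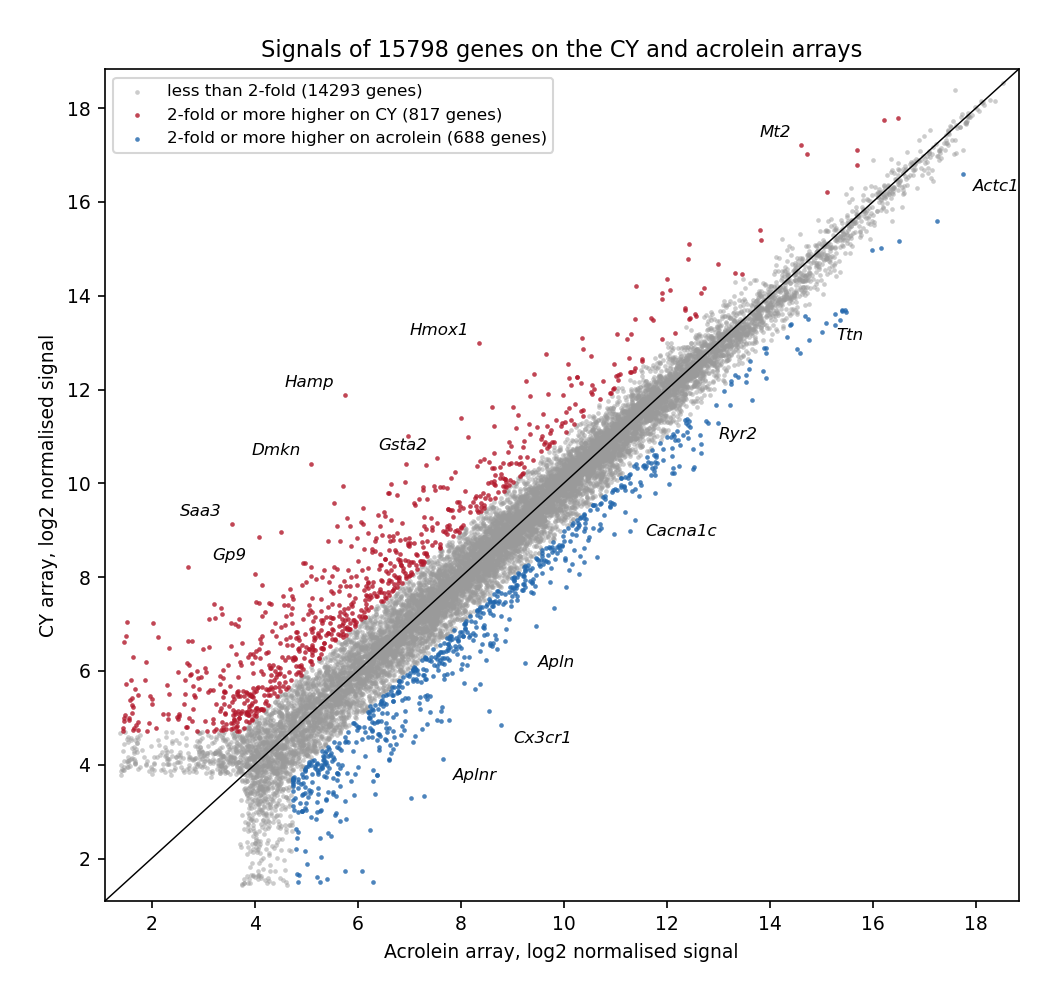
Each point is 1 of 15798 genes, with its log2 normalised signal on the acrolein array along the horizontal axis and on the CY array along the vertical axis. Red points are at least 2-fold higher on CY (817 genes) and blue points at least 2-fold higher on acrolein (688 genes), with the dim side held at the bound, and the line marks equal signals.

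The 15 highest ratios named Hamp, Saa3, Dmkn, Gp9, Hmox1, Cd207, Clec1b, Cst9, Fxyd3, Anxa8, Ppbp, Nap1l5, Treml1, Tmem40 and Fam183b. Hamp, which encodes the iron hormone hepcidin, read 3772 on CY and 54.0 on acrolein, a 69.9-fold ratio. Saa3, an acute-phase serum amyloid, read 562 on CY and was not well above background on acrolein, a ratio of at least 42.8-fold. Dmkn, a secreted epithelial protein, read 1372 against 34.2. Cd207, the langerin gene of dendritic cells, read 297 on CY and was at least 22.6-fold higher there. The leading genes on the CY side thus included an iron hormone, an acute-phase gene, epithelial genes (Dmkn, Fxyd3, Anxa8) and 4 platelet genes (Gp9, Clec1b, Ppbp, Treml1).

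The 15 lowest ratios named Cx3cr1, Derl3, Aplnr, Ccl12, Nckap5, Apln, Prkg1, Rtn4r, Plekhh1, Rasgrf2, Dntt, Galnt17, Polq, Ky and Cd3d. Cx3cr1, the fractalkine receptor of monocytes and resident macrophages, read 29.0 on CY and 441 on acrolein, a log2 ratio of -3.93. Derl3, part of the machinery that removes misfolded proteins from the endoplasmic reticulum, read 156 on acrolein and was at least 11.7-fold higher there. Prkg1, a cGMP-dependent kinase of smooth muscle, read 30.8 against 220. Nckap5, Prkg1, Rasgrf2 and Galnt17 span 917, 1201, 251 and 433 kb of the genome, a property taken up with the muscle genes below.

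Markers of cell types differed between the arrays, and they are given first because the gene groups that follow share some of their genes. Of 22 genes of mesothelium and epicardium, the cell layer on the surface of the heart, 21 were higher on CY and none on acrolein, with a median log2 ratio of 2.44. Msln, Krt19 and Upk3b stand on that list, and Upk1b read 546 on CY and 48.7 on acrolein. The summed signal of the list was 66200 on NS, 71400 on acrolein, 147200 on CY and 111000 on NAC + CY. Of 15 genes of atrial muscle, 8 were higher on CY and none on acrolein. Their summed signal was 825300 on CY and 386400 on acrolein. Bmp10, a growth factor of right atrial muscle, read 105 on CY and was not well above background on acrolein, at least 8.01-fold. Cacna2d2, a calcium channel subunit, read 884 and 96.8, while its other probe had a log2 ratio of 0.41.

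Of 16 platelet genes, 11 were higher on CY and none on acrolein, with a median of 1.66. All 16 were well above background on CY and 12 on acrolein. The others passed the filter through CY alone, so the count is read with that limit. Gp9, a subunit of the von Willebrand factor receptor, read 462 against 16.9, and the platelet chemokine Ppbp read 764 against 46.8. The summed platelet signal was 3711 on NS, 3563 on acrolein, 9370 on CY and 2752 on NAC + CY. Of 19 hepatocyte genes, 11 were higher on CY, while 20 other genes of that list, Alb and Apoa1 among them, were not well above background on either array. All 19 were well above background on CY and 16 on acrolein, so the same limit holds. The hepatocyte list had 3 genes in common with the acute-phase list (Ahsg, Hp, Itih3). Of 25 adipocyte genes, 9 were higher on CY, among them Cidec (1366 against 122), Adipoq (493 against 73.6) and Ucp1 of brown fat (965 against 155). On the lung list 4 of 12 genes were higher on CY and 1 on acrolein, with all 12 well above background on CY and 9 on acrolein. The club cell gene Scgb1a1 read 316 on CY and 30.6 on acrolein, whereas the surfactant genes Sftpa1, Sftpb and Sftpd were not well above background on either.

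Fibroblast and red cell lists had no gene at 2-fold in either direction, of 16 and 15 measured. Endothelium had 2 genes in each direction of 22, and the cardiomyocyte list had 2 of 19 higher on acrolein. The summed cardiomyocyte signal was 2431000 on CY and 2860000 on acrolein. Of 27 tissue macrophage genes, 6 were higher on CY and 2, Cx3cr1 among them, on acrolein, with a median of 0.07. Cd207, Vsig4, Lyve1 and Clec4d were among those higher on CY. All 27 were well above background on CY and 24 on acrolein. Among mural cell genes, Cnn1 read 1044 on CY against 122 and Tagln 5113 against 2121, while Acta2, smooth muscle actin, depended on the probe, with 7430 against 23518 on the brightest and 7588 against 8159 on the next. Schwann cell and melanocyte genes had 4 of 20 higher on CY, led by the melanocyte antigen Mlana (4679 against 619). In bulk tissue, fewer cells of a type and less RNA per cell cannot be told apart, and the part of dissection or tissue share in the ratios was not tested. Without the genes of the mesothelial, atrial, platelet, adipocyte, hepatocyte, lung and Schwann lists, which was decided once the ratios were known, 750 genes remained on the CY side and 687 on the acrolein side. These lists are short and hold few of the counted genes. The small change was therefore set by their size, and these counts do not bear on tissue share.

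**Figure D2:**
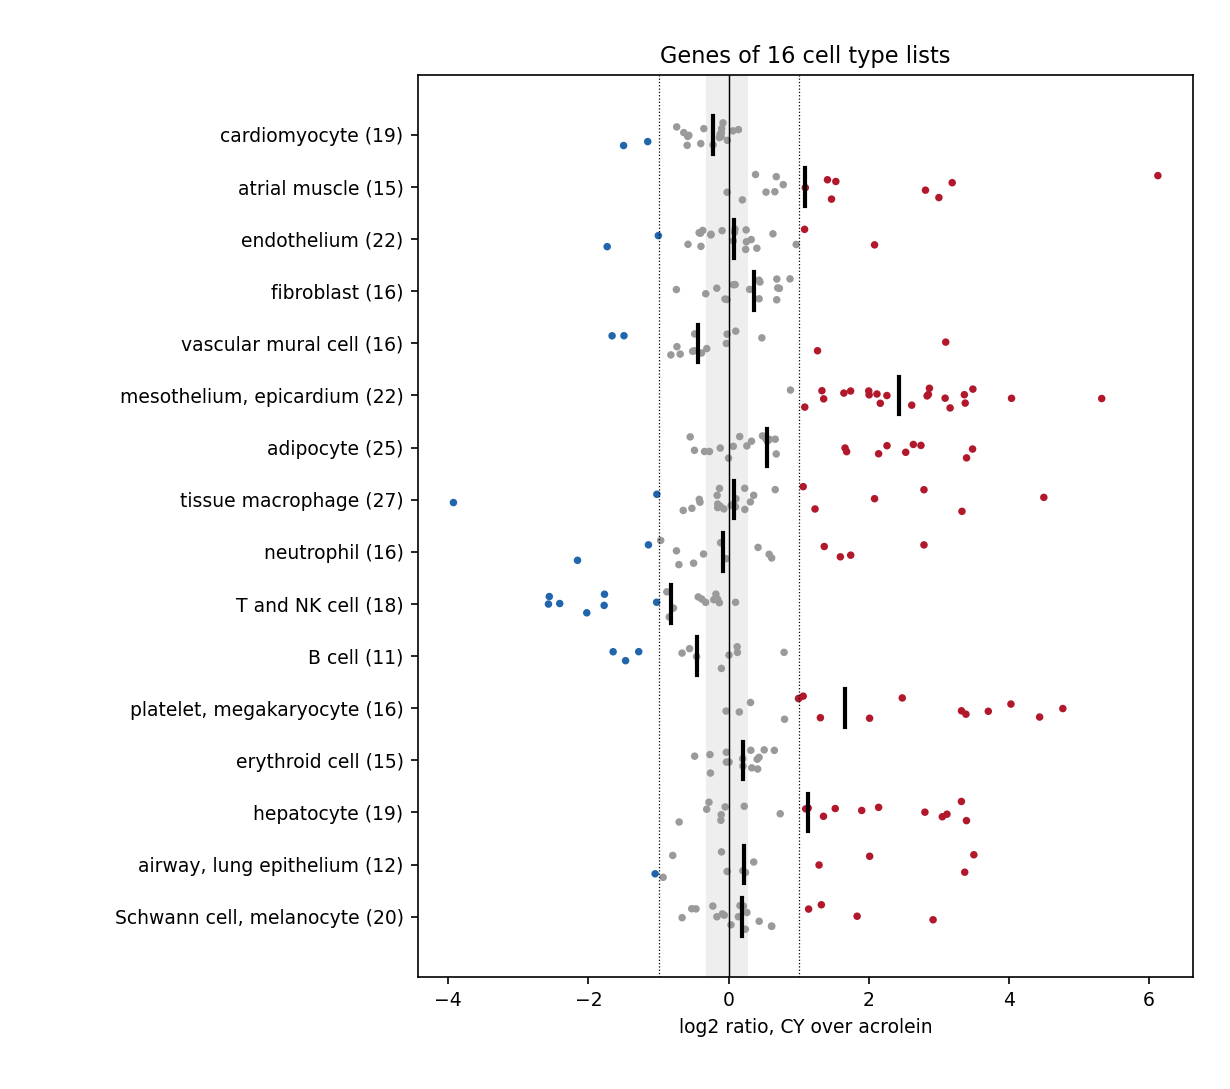
Each point is 1 gene of a cell type list, placed by its log2 ratio of CY over acrolein, with the number of measured genes after the name, a bar at the median of the list, dotted lines at 2-fold and a grey band over the middle quartiles of all genes. The mesothelial list lies to the right of 0 with 21 of 22 genes at 2-fold or more, and the T and natural killer cell list has a median below 0 with 7 of 18 genes at 2-fold.

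Of 38 measured genes of antioxidant defence that Nrf2 controls, 10 were higher on CY and 1, the efflux pump Abcc4, on acrolein, and the list's median was 0.63 against -0.02 for all genes. Hmox1, which degrades haem, read 8157 on CY and 328 on acrolein, a 24.8-fold ratio. Osgin1, an oxidative stress-induced growth inhibitor, read 866 against 108. Ephx1, an epoxide hydrolase, read 17766 against 4282, and Srxn1, which repairs oxidised peroxiredoxins, read 4898 against 1220. On all 4 arrays together, normalised over the 4, Hmox1 read 349 on NS, 325 on acrolein, 8135 on CY and 4850 on NAC + CY. The acrolein array was thus next to the saline array for this gene, and both arrays that had CY were high.

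Glutathione transferases, which couple electrophiles to glutathione, went the same way with 6 of 26 higher on CY and none on acrolein. Gsta2 read 1478 against 187, and the microsomal enzyme Mgst1 read 11817 against 3318. Gsta4, the transferase that prefers reactive aldehydes from lipids, read 2628 against 1123. Of 27 genes of aldehyde oxidation and reduction, 5 were higher on CY and none on acrolein. They included Aldh1a1, the dehydrogenase that also oxidises the aldehyde form of CY (2241 against 864, 2.59-fold), Aldh1a3 (78.9 against 25.2) and the alcohol dehydrogenase Adh1 (1960 against 750). Aldh1a2, another of the 5, is also on the mesothelial list. Among 30 cytosolic heat shock genes, 3 were higher on CY and 2 on acrolein. Hspa1a and Hspa1b, near-identical copies of inducible Hsp70 whose probes may share target RNA, read 609 against 173 and 152 against 50.3, and the co-chaperone Fkbp4 read 8916 against 20538.

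The core of the antioxidant response element, the site that Nrf2 binds, was looked for as TGACNNNGC on both strands of RefSeq promoter windows (mouse build GRCm38.p6, 250 bases before to 50 after a gene's start). Of 32851 windows, 12.4% held it. Of the 32 measured genes of the Nrf2 list that have a window, 11 held it, and of the 8 among them that were higher on CY, 3 did. The window of Srxn1 (chr2:152105274-152105573, plus strand) is shown for its single match, in capitals. A match is a description and not a binding site, and no match says only that these letters are not in the window.
Srxn1: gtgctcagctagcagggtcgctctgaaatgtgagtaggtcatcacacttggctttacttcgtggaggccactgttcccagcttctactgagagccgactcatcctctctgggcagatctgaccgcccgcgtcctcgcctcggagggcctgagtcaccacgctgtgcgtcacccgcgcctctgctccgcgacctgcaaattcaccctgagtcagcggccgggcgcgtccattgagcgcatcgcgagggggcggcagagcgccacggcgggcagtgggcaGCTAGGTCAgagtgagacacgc

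Of 35 measured targets of p53, 11 were higher on CY and 1, Gadd45a, on acrolein, and their median was 0.37. Cdkn1a, the p21 cell cycle inhibitor, read 5935 on CY and 1088 on acrolein. Trp53inp1, a stress-induced p53 cofactor, read 2400 against 400 (6.00-fold). Ckap2 and Gtse1, which act on microtubules, were at least 10.6-fold and 5.60-fold higher on CY. The death gene Pmaip1, known as Noxa, read 127 on CY and was at least 9.71-fold higher, while its relatives Bbc3 and Bax read 826 against 311 and 3049 against 1326. Gdf15, a stress cytokine and p53 target, read 1215 against 238. The 11 thus included cell cycle, death and secreted genes.

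Of 35 genes of crosslink and alkylation repair, none was higher on CY and 1, Fanci, was at least 2.16-fold higher on acrolein, with a list median of -0.05. Of 35 cell cycle genes, 1 was higher on CY (Cdc20, 192 against 82.9) and 4 on acrolein, such as Mki67 (44.5 against 94.3) and Kif20a (15.7 against 35.9). The other Cdc20 probe had a log2 ratio of 0.46. Among 23 histone genes, 3 were higher on CY, and H1f2, a linker histone, read 13350 against 5251. On the list of the Bcl-2 family and death receptors, 5 of 36 were higher on CY and 1 on acrolein, Hrk (15.4 against 64.7), and 6 genes of that list are p53 targets too.

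Of 44 genes of the sarcomere, the contractile unit of muscle, 2 were higher on CY and 6 on acrolein, and the median log2 ratio was -0.41. Ttn, which encodes titin, the molecular spring of the sarcomere, read 10918 on CY and 34985 on acrolein, with 4 of 6 probes at 2-fold. Fhod3, a formin that assembles actin, read 4840 against 15536, and Fhl2, a LIM protein of the sarcomere, read 49245 against 156450. The actins Actc1 and Acta1 read 98852 against 219940 and 2106 against 6392. The 2 genes higher on CY were the atrial light chains Myl4 and Myl7, which are also on the atrial list.

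Of 45 genes of calcium handling, 1 was higher on CY, the atrial gene Sln, and 8 on acrolein, with a median of -0.41. Ryr2, through which the sarcoplasmic reticulum releases calcium, read 2515 against 7104, a log2 ratio of -1.50, and all 3 of its probes were at 2-fold or more. Cacna1c, the pore of the L-type calcium channel, read 600 against 2681 (-2.16), with 3 of 4 probes at 2-fold. Akap7, which holds protein kinase A at phospholamban, read 1295 against 5905, but its other two probes had log2 ratios of -0.28 and -0.12, so the gene's ratio depends on the probe. Adrb1, the beta-1 adrenergic receptor, read 292 against 867.

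Of 31 genes of ion channels, 2 were higher on CY and 5 on acrolein. Kcnd2 and Kcne1, a pore and an accessory subunit of potassium channels, read 237 against 855 and 486 against 2008, and Abcc9, the sulphonylurea receptor of the ATP-sensitive channel, read 1220 against 3433. Scn3b, a sodium channel subunit, was higher on CY with 94.3 against 30.5. Of 40 genes of the intercalated disc, the dystrophin complex and the costamere, none was higher on CY and 11 were higher on acrolein, with a median of -0.47. The integrin subunit Itga9 read 319 against 1346. Itga10 depended on the probe, with 24.4 against 139 on the brightest and 66.7 against 39.5 on the other. Sgcd, the delta subunit of sarcoglycan, read 446 against 1420, with 2 of 3 probes at 2-fold.

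The 9 genes that the study chose on these samples for RT-PCR included several of these, and their directions are no independent evidence. Besides Ryr2, Cacna1c, Actc1 and Aldh1a1, Dmd, the dystrophin gene, read 220 against 604 (-1.46, with 2 of 6 probes at 2-fold). Lama2, a laminin chain of the muscle basement membrane, read 1340 against 3014, with 3 of 5 probes at 2-fold. Itga1 read 76.9 against 160, with 1 of 2 probes at 2-fold and the other at a log2 ratio of -0.46. Itga2b, the platelet integrin, read 52.95 on CY and was at least 4.03-fold higher. Ctnna3, the alpha-T catenin of the intercalated disc, depended on the probe. Its brightest probe, at mm9 chromosome 10, 63048320 to 63048379, read 59.3 on CY and 36.9 on acrolein, a log2 ratio of 0.69. The other two, at 64138650 to 64297370 (a span across introns) and at 64467734 to 64467793, had ratios of -1.52 and -1.11, so no direction is given for the gene.

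**Figure D3:**
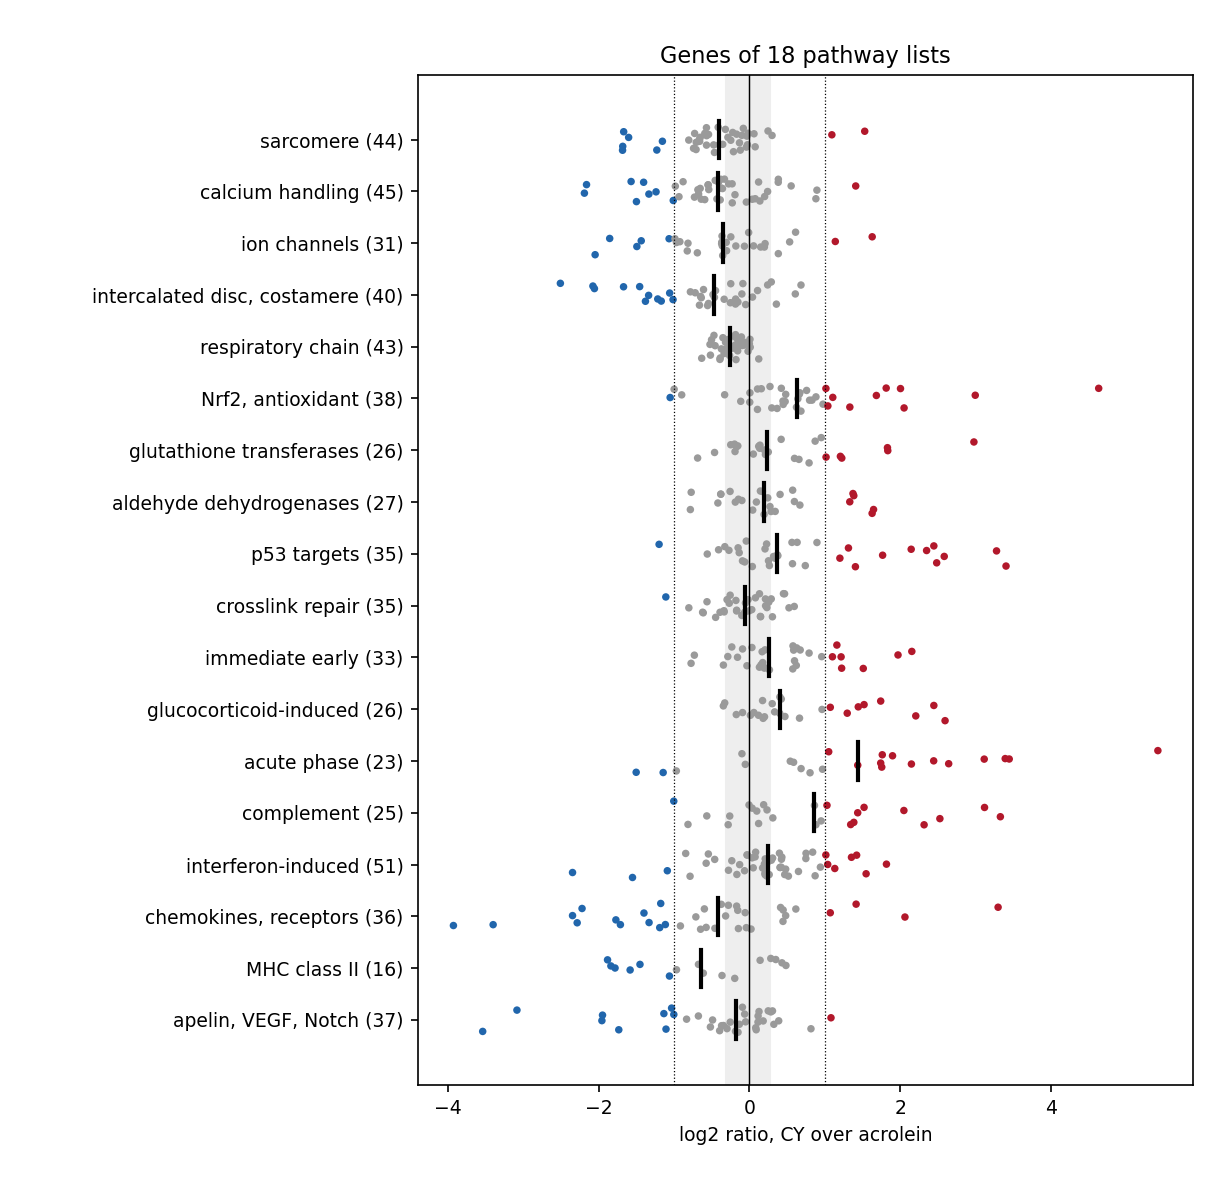
Each point is 1 gene of a pathway list, placed by its log2 ratio of CY over acrolein, with the number of measured genes after the name, a bar at the median of the list, dotted lines at 2-fold and a grey band over the middle quartiles of all genes. The 4 muscle lists have medians from -0.47 to -0.35, and the acute-phase list has the rightmost median at 1.44.

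Many of the muscle genes are long, and gene length went with the ratio over the whole array. Length is the genomic span from the start to the end of the gene in RefSeq, GRCm38.p6, introns included, and every one of the 15798 genes had a value. Genes under 5 kb had a median log2 ratio of 0.05 (2562 genes), genes of 50 to 100 kb -0.09 (2052), genes of 100 to 200 kb -0.24 (1179), genes of 200 to 500 kb -0.50 (593) and genes of 500 kb or more -0.56 (141). Of the genes of 500 kb or more, 34.8% were at least 2-fold higher on acrolein and 0.709% on CY, against 2.77% and 6.17% of the genes under 5 kb. Genes of at least 200 kb were 4.65% of all genes, 2.33% of those higher on CY and 25.7% of those higher on acrolein (177 of 688). Across genes, which are not independent replicates, Spearman's rho between length and ratio was -0.19, as a description. Length itself had a rho of -0.02 with the mean signal and of -0.23 with the GC content of the probe, while probe GC had a rho of 0.02 with the ratio. In a split chosen after the ratios were seen, genes of at least 200 kb had a median of -0.57 where probe GC was below its median of 41.7% (391 genes) and of -0.47 where it was not (343 genes).

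The length relation was seen in bright and in dim genes. Among genes brighter than the median gene, those of 500 kb or more had a median of -0.85, and among dimmer genes -0.52. It was present without the 4 muscle lists, where genes of 200 to 500 kb had a median of -0.49, and 159 of the 697 other genes of at least 200 kb (22.8%) were higher on acrolein. On the muscle lists themselves, which hold 160 genes together, 18 of 37 genes of at least 200 kb (48.6%) were higher on acrolein and none on CY, with a median of -0.93. The 85 muscle genes under 50 kb had 6 higher on acrolein, 5 higher on CY and a median of -0.21. Long genes named above include Dmd (2390 kb), Ctnna3 (1574 kb, with no direction given), Sgcd (1018 kb), Lama2 (636 kb), Cacna1c (610 kb), Ryr2 (554 kb), Kcnd2 (514 kb), Fhod3 (425 kb) and Ttn (279 kb). Short muscle genes that were more than 2-fold higher on acrolein were Adrb1 (3 kb), Acta1 (3 kb), Actc1 (5.6 kb), Kcne1 (13.5 kb), Itga10 (18.9 kb, on 1 of 2 probes) and the potassium channel subunit Kcnip2 (24.1 kb). Whether length has a part in the muscle result was not tested.

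The same bins were read on other pairs of arrays. NAC + CY over NS, a pair that has no array in common with CY over acrolein, had medians of 0.01 under 5 kb, -0.18 at 100 to 200 kb, -0.38 at 200 to 500 kb and -0.61 at 500 kb or more, where 29.8% of genes were 2-fold lower and none was 2-fold higher. Acrolein over NS had medians of 0.00 under 5 kb and 0.03 at 500 kb or more, with no gene of that length at 2-fold in either direction. Acrolein over NS shares an array with each of the other pairs, so its values are not independent of theirs. The 2 pairs with a CY-treated array had lower ratios in longer genes, and the medians of acrolein over NS lay between 0.00 and 0.03.

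**Figure D4:**
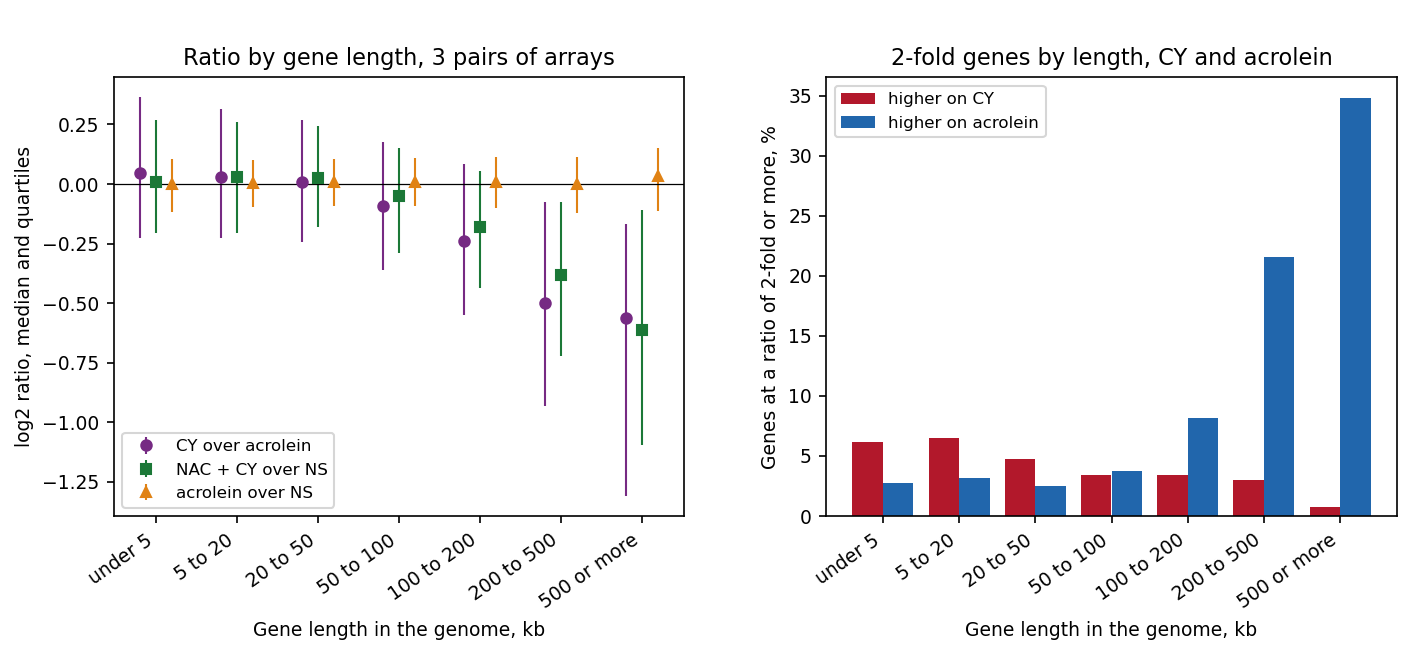
On the left, the median log2 ratio with quartiles is plotted by gene length in the genome for CY over acrolein, NAC + CY over NS and acrolein over NS. On the right, bars give the share of genes in each length bin that were at least 2-fold higher on CY or on acrolein, which reached 34.8% on the acrolein side at 500 kb or more.

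None of 43 genes of the respiratory chain and citric acid cycle was at 2-fold, but their median was -0.26, and the largest difference was in Ndufs4, a complex I subunit (19605 against 30391). Of 41 genes of fatty acid oxidation and PPAR targets, 4 were higher on CY and 2 on acrolein. The uncoupling proteins Ucp2 and Ucp3 read 2806 against 553 and 2841 against 773. Ppargc1b, a coactivator of mitochondrial genes, was lower on CY with 505 against 2501. Of 36 genes of glucose use, hexokinase 2 (Hk2, 1527 against 4399) was higher on acrolein and Phkg1, a phosphorylase kinase subunit, on CY. The insulin-responsive transporter Slc2a4 read 23309 against 42303, under 2-fold. On the list of cardiac stress genes, 9 of 24 were higher on CY and 1, Acta1, on acrolein. Ccn2 read 17064 against 3830 and Timp1 2325 against 541, both secreted proteins of matrix remodelling.

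Metallothioneins, small proteins that bind zinc and other metals, were among the brightest genes that differed. Mt2 read 151920 on CY and 25114 on acrolein, a 6.05-fold ratio, and Mt1 read 225980 against 91867. The metallothioneins are similar in sequence, and their probes may share target RNA. Slc39a8 and Slc39a4, zinc importers, were higher on CY with 565 against 68.8 and 155 against 39.0, and Slc39a11 was lower with 167 against 507. In all, 4 of 20 genes of the list were higher on CY and 1 on acrolein.

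The metal response element core was looked for as TGCNCNC on both strands, and 51.0% of all windows held it at least once, but 7.10% held it 3 times or more. The windows of Mt2 (6 matches; chr8:94172368-94172667, plus strand) and Mt1 (3 matches; chr8:94178839-94179138, plus strand) are shown because these neighbouring genes carried the metal signal, with the matches in capitals. Mt4, whose window held 5 matches, stayed under 2-fold at a log2 ratio of -0.28, and Slc39a11, with 3 matches, was lower on CY. The letters alone did not follow the direction.
Mt2: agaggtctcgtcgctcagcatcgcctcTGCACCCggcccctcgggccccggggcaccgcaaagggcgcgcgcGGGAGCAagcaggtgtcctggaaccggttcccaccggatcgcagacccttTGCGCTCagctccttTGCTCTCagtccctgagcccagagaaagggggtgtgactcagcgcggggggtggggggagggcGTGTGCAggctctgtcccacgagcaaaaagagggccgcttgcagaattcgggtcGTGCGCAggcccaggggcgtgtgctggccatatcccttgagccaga
Mt1: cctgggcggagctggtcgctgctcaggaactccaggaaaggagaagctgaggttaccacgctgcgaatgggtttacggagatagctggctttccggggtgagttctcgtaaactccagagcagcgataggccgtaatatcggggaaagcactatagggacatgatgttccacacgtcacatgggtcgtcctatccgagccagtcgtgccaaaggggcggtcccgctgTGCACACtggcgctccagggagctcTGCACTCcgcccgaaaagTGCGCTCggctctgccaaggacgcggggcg

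Of 35 genes of iron and haem, 9 were higher on CY and 1 on acrolein, the transferrin receptor Tfrc, with a median of 0.26. Hamp2, the copy of the hepcidin gene, read 122 against 22.8, and its probe may share target RNA with Hamp. Of 23 acute-phase genes, 13 were higher on CY and 2, Chil3 and S100a9, on acrolein, and the median was 1.44. Haptoglobin (Hp) read 2696 against 256 and the protease inhibitor Serpina3n 609 against 55.8. Ahsg, fetuin A, read 6952 against 802, and Lcn2, a siderophore-binding lipocalin, 1618 against 483. Hp and Ahsg are on the hepatocyte list too. The acute-phase list was not split into proteins that rise and proteins that fall in inflammation. Over the 4 arrays Saa3 read 72.1 on NS, 11.4 on acrolein, 559 on CY and 108 on NAC + CY. Hamp read 171 on NS, 53.02 on acrolein, 3761 on CY and 287 on NAC + CY, so the CY array alone was high, whereas Hp read 438, 254, 2696 and 6718 in that order, and both CY arrays were high. Hamp is on the atrial list too, and that list's summed signal was 2.14 times as high on CY as on acrolein.

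Complement genes made outside the liver had 10 of 25 higher on CY and 1 on acrolein, with a median of 0.86. The factors Cfb and C2 of the activating enzymes read 296 against 33.998 and 809 against 162, and Cfd, which fat tissue secretes, read 3744 against 649. Vsig4, a complement receptor of resident macrophages, read 132 on CY and was at least 10.1-fold higher. Glucocorticoid-induced genes had 8 of 26 higher on CY and none on acrolein. The clearest was Fkbp5, a chaperone of the steroid receptor (3810 against 824), and Mt1, Mt2, Lcn2 and Cdkn1a are on that list as well. Of 36 genes of SOCS, Bcl3 and IL-6 family signalling, Cntf, ciliary neurotrophic factor, was the 1 higher on CY (1344 against 160), and none was higher on acrolein. Il6 read 22.5 on CY and was not well above background on acrolein, with a bound of under 2-fold, and Socs3 read 970 against 750. A large acute-phase difference therefore stood beside small differences in the receptors and inhibitors of that signal.

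Of 36 chemokines and receptors, 4 were higher on CY and 12 on acrolein, with a median of -0.41. The monocyte attractant Ccl12 read 35.5 against 375, and Cxcl9, which draws T cells, read 20.1 against 102. The B cell attractant Cxcl13 went the other way, with 129 on CY and at least 9.85-fold higher. For Ccl12 the 4 arrays read 87.4 on NS, 371 on acrolein, 34.7 on CY and 67.1 on NAC + CY, so the acrolein array was the highest. For Cx3cr1 they read 417, 438, 28.2 and 21.6, so the CY arrays were low and acrolein was next to saline.

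Of 16 genes of MHC class II presentation, none was higher on CY and 6 were higher on acrolein, with a median of -0.64. The chains H2-Aa, H2-Ab1 and H2-Eb1 read 78.1 against 288, 1292 against 4443 and 1164 against 3486, and Ciita, the master regulator of these genes, was at least 3.57-fold higher on acrolein. Of 18 genes of T and natural killer cells, 7 were higher on acrolein and none on CY. Of the 18, 8 were well above background on both arrays and the others passed the filter through acrolein alone, so the count is read with that limit. Cd3d, Lck and Gzma belong to them, with Lck at 18.9 against 101. Of 11 B cell genes, 3 were higher on acrolein, such as Cd79b (29.8 against 93.2). All 11 were well above background on acrolein and 8 on CY, so the same limit holds. The summed T and natural killer signal was 3008 on NS, 3001 on acrolein, 2406 on CY and 2267 on NAC + CY. Neutrophil genes were mixed, with 4 of 16 higher on CY and 2 on acrolein. Retnlg read 26.9 against 120, and Clec4d read 407 against 58.9.

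Interferon-induced genes had 7 of 51 higher on CY and 3 on acrolein, with a median of 0.24. Ifit1, which binds foreign RNA, read 253 against 71.8, and the ubiquitin-like Isg15 read 2379 against 813. The 3 genes higher on acrolein were Gbp4, a guanylate-binding protein, Cxcl9 and Rsad2, the last with a log2 ratio of -1.09. The interferon response element was looked for as GAAANNGAA on both strands, and 8.56% of all windows held it. Of 37 measured list genes with a window, 22 held it, among them 3 of the 4 with a window that were higher on CY and both of the 2 higher on acrolein. The windows of Isg15 (chr4:156200769-156201068, minus strand) and Ifit1 (chr19:34640639-34640938, plus strand), with 3 matches each, and of Cxcl9 (chr5:92328030-92328329, minus strand), with 1, are shown as genes of this list that went opposite ways, with the matches in capitals. Overlapping matches run together.
Isg15: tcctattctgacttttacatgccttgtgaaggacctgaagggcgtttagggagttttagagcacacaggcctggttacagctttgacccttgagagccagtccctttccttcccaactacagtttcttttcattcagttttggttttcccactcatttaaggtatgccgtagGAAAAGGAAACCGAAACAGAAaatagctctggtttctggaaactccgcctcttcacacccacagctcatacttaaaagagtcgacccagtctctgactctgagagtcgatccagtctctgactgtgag
Ifit1: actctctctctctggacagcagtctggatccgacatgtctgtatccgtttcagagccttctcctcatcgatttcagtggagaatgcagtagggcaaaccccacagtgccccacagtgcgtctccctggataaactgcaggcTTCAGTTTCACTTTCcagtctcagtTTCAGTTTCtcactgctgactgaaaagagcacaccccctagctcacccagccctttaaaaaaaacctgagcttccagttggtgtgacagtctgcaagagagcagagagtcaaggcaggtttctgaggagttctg
Cxcl9: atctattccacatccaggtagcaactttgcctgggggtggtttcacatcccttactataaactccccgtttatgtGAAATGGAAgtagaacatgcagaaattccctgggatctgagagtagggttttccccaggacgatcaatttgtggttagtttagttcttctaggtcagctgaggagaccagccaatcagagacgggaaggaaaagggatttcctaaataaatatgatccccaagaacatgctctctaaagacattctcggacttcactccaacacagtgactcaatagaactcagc

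Of 37 genes of the apelin, VEGF, angiopoietin and Notch pathways, 1 was higher on CY and 9 on acrolein, while the list's median was -0.18. Apelin and its receptor led. Aplnr read 17.3 against 201 (-3.54) and Apln 72.1 against 611 (-3.08). Kdr, the main VEGF receptor, read 855 against 2840, Esm1 of endothelial tip cells 26.4 against 102, and the receptor Notch1 285 against 1100. The endothelial list, with 9 genes in common, had a median of 0.08, and its summed signal was 133300 on CY and 127800 on acrolein. Vwf and the lymphatic gene Lyve1 were higher on CY, with 6215 against 2930 and 1477 against 348. Of the 9 genes higher on acrolein 7 span less than 100 kb, such as Aplnr (3.6 kb) and Apln (9.7 kb), and 2 span more, among them Flt1 (165 kb). The Flt1 probes other than the brightest had log2 ratios of -0.83 and -0.02, so its count depends on the probe.

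Of 50 matrix genes, 6 were higher in each direction. Mmp3, a matrix protease, read 892 against 97.9, and Reln, reelin, was at least 5.27-fold higher on acrolein. On the list of PI3K, Akt, p38 and IGF signalling, 6 of 38 were higher on CY and 3 on acrolein. The binding proteins Igfbp5 and Igfbp3 read 4864 against 1106 and 3774 against 1016, and Pik3ca, the catalytic subunit of PI3 kinase, read 1197 against 4510. Of 23 genes of Wnt ligands, secreted inhibitors and targets, 9 were higher on CY and 1 on acrolein, with a median of 0.86. Dkk3, a secreted relative of the Wnt inhibitors, read 18896 against 2695 and is on the atrial list, and Sfrp5 (2026 against 284) and Rspo1 are on the mesothelial list. Wnt9b and Wnt4 read 259 against 34.05 and 107.1 against 17.7.

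Immediate early genes had 7 of 33 higher on CY and none on acrolein. The nuclear receptor Nr4a1 read 2616 against 918, and the phosphatase Dusp5 520 against 223. On the list of endoplasmic reticulum stress, 2 of 36 were higher on CY and 4 on acrolein. Atf3 (383 against 97.5) and the serine enzyme Psat1 were on the CY side, and the lumenal chaperones Hsp90b1 (11611 against 27277) and Sdf2l1 (204 against 656) were on the acrolein side. Of 23 clock genes, 3 were higher on CY and 1 on acrolein. Wee1, a mitotic kinase under clock control, read 388 against 77.2, Per2 416 against 194 on 1 of 2 probes, and Cry1 was at least 2.28-fold higher, while the output gene Dbp read 4595 against 11920. The core activators Clock and Arntl read 919 against 854 and 245 against 222.

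The genes counted here were also read on NAC + CY over NS, which shares no array with CY over acrolein. There 510 of 15546 genes (3.28%) were at least 2-fold higher on NAC + CY and 539 (3.47%) at least 2-fold higher on NS. Of the 773 genes higher on CY that were measured in both pairs, 261 (33.8%) were 2-fold higher on NAC + CY and 11 were 2-fold the opposite way. They were 58.8% of the genes higher on NAC + CY. Of 678 genes higher on acrolein, 305 (45.0%) were 2-fold higher on NS and 4 the opposite way, which were 56.9% of that list.

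The gene groups differed in this. Of the p53 targets higher on CY, all 11 were 2-fold higher on NAC + CY than on NS, and so were all 6 glutathione transferases, all 7 immediate early genes and 10 of 13 acute-phase genes. Of the Nrf2 list, 6 of 10 were. The 2 acute-phase genes higher on acrolein, Chil3 and S100a9, went the opposite way, with log2 ratios of 2.12 and 3.455 for NAC + CY over NS. The neutrophil gene Retnlg, also higher on acrolein, did so too, with a bound of 3.175. All 6 MHC class II genes, 6 of 8 calcium genes, 7 of 11 disc genes and 6 of 9 vascular genes higher on acrolein were 2-fold higher on NS. Mesothelial and platelet genes did not recur. Only 1 of 20 mesothelial genes was 2-fold higher on NAC + CY (Anxa8) and none of 10 platelet genes was, with median log2 ratios in that pair of 0.01 and -0.29. Of the 7 atrial genes 1 was (Dkk3), and of the 9 Wnt genes 2 were. The 7 atrial genes had a median log2 ratio of 0.75 in that pair, against 0.65 for all genes higher on CY. The summed signal of the atrial list was 309900 on NS and 499200 on NAC + CY. Of the 6 sarcomere genes higher on acrolein, 2 were 2-fold higher on NS. Adipocyte and hepatocyte genes did recur, 7 of 9 and 10 of 11. In that pair the hepatocyte genes Alb and Fgb, at background on CY and acrolein, had log2 ratios of at least 7.89 and 5.55. Cps1 and Cyp3a11, at background there too, had bounds of 0.04 and 0.05. The summed signal of the 19 measured hepatocyte genes was 6271 on NS, 4889 on acrolein, 17580 on CY and 30590 on NAC + CY. The part of tissue share in this recurrence was not tested. Of the 4 lung genes higher on CY, 1 was 2-fold higher on NAC + CY and 2 were 2-fold higher on NS. Scgb1a1 was among the latter, with a bound of -4.755 on the log2 ratio. Hamp had a log2 ratio of 0.75 in that pair and Hmox1 3.81.

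**Figure D5:**
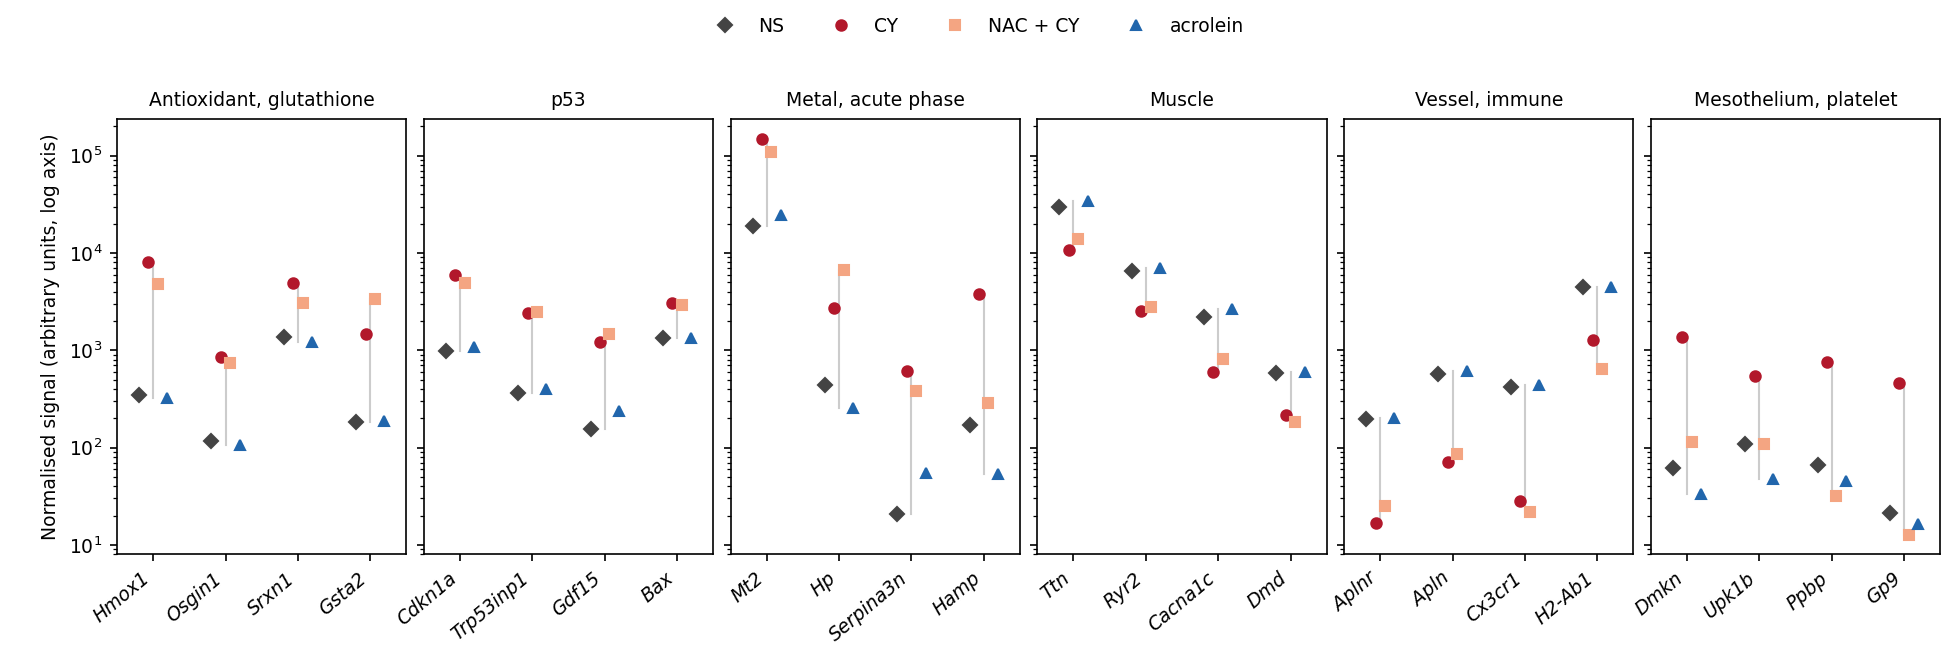
The normalised signals of 24 genes on the NS, CY, NAC + CY and acrolein arrays are plotted on a log axis, 1 point for each array, with the 4 arrays normalised together. For the antioxidant, p53, muscle and vessel genes the NS and acrolein points lie near each other and the CY and NAC + CY points lie apart from them, whereas for the mesothelial and platelet genes the CY point stands alone.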

How the data were processed

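Total RNA of mouse hearts was labelled with Cy3 and hybridised to single-colour Agilent mouse arrays, 1 for each condition. The authors scanned the arrays with Agilent Feature Extraction (version 10.7.1.1 per the file headers, 9.5.1.1 per the submitters' processing notes), with probe positions on mm9. The deposited intensity values are background-subtracted and not normalised, and a deposited table of linear signal holds the authors' normalised values, which served as an alternative. The study's methods name quantile normalisation and a P flag in at least 1 sample.

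Here the log2 intensities of 59305 non-control spots were quantile-normalised over the CY and acrolein arrays, and the repeat spots of each probe were combined as a mean without those with an outlier flag (80 spots on CY, 54 on acrolein). Quantile normalisation gives both arrays the same distribution, so ratios are relative to the other genes. Probes were named through RefSeq by accession (33903), symbol (9458) or synonym (488), and 12756 without a match were left out of gene counts. No test was possible with 1 array for each condition, and precision is limited by the number of arrays. The calling steps were tested on simulated data.

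The members and the 49 gene lists, written from general knowledge, were chosen with earlier results of these data known. Genes named are the 15 highest and 15 lowest ratios, up to 4 of each list with the largest absolute ratio, the study's RT-PCR genes, Actb and Gapdh, and members of the metallothionein, SOCS and clock lists. A single gene that stands against its list, a shared member of lists, a marker at background or a gene that completes a short count was named after its values were seen. A few genes that the rule names are not reported here. Gene length was examined after the ratios were seen. Alternatives covered normalisation, background correction, the authors' value table, the filter, the bound, the criteria and how probes of a gene were combined. The normexp correction (offset 50) was run in limma 3.58.1 under R 4.3.3, and everything else in Python 3.11.15 (numpy 2.4.6, pandas 2.3.3, matplotlib 3.10.9).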

Additional observations from a re-analysis of the deposited data

How the results depend on the processing

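The main counts were 817 genes higher on CY and 688 on acrolein. They were 381 and 299 after normexp background correction, 1402 and 1254 with no filter on dim probes, 1809 and 1875 at a ratio of 1.5, and 214 and 68 at a ratio of 4. The last 3 differ by construction. The normexp correction adds its offset of 50 to every signal, which by construction makes the ratios of dim genes smaller. The share of the offset in the lower counts was not tested. The other alternatives gave 623 to 1014 genes higher on CY and 469 to 882 on acrolein. No counted gene was 2-fold the opposite way under any alternative, and 46.1% and 43.3% of the counted genes remained at 2-fold under normexp correction. Of the 171 named genes at 2-fold, 137 remained under normexp correction, 160 with the median over probes and 170 in the authors' value table, and none changed sign. List medians changed sign under 1 alternative each for the lung list (0.22, lowest -0.02) and the tissue macrophage list (0.07, lowest -0.02), and no other list's did. The platelet median ranged from 0.88 to 2.41 and the T and natural killer cell median from -1.77 to -0.22. Without the 4 muscle lists, a step chosen after seeing the data, the median of genes of at least 200 kb was -0.49 against -0.51. No paired analysis was possible because each condition has 1 array. Signals below background limit the ratios of dim genes to bounds.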

Other observations

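Long genes outside the muscle lists were also lower on CY, and those named here were chosen after their values were seen. The receptor tyrosine phosphatases Ptprm and Ptprg read 27.1 on CY against 153 on acrolein and 69.9 against 277. Plcb1, a phospholipase C, read 20.7 against 85.8, and the growth factor homologue Fgf13 read 94.3 against 379. Over the 4 arrays Ptprg read 278 on NS, 274 on acrolein, 68.9 on CY and 86.5 on NAC + CY, so the CY arrays were low and acrolein was next to saline. Slit3, a guidance ligand, was the 1 gene of 500 kb or more at 2-fold higher on CY, with 158 against 66.7. In the monocyte chemokine Ccl7 the acrolein array was the highest of the 4, with 62.2 on NS, 167 on acrolein, 33.8 on CY and 36.3 on NAC + CY.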
